A study of Mus musculus with 8 samples.

Results

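The 54 genes described here carry out mitosis, from the cyclins and kinases that start it to the kinetochores, spindle motors and proteases that separate the chromosomes. They were chosen by name from the known machinery, with earlier results of these data known, so counts over them are descriptions. All 54 of the 54 names were found among the 24062 genes of the count tables. Each also passed the filter on low counts, with 144 counts (Cenpk) to 14744 counts (Mki67) in a library, and so was among the 15789 genes tested. Their levels were compared between the whole cerebella of single pups at postnatal day 2, in 4 Sufu mutants and 4 control littermates of a mixed C57BL/6 background. The mutants were Math1-Cre; Sufu flox/-, with 1 floxed and 1 null allele of Sufu, whose product holds the Gli transcription factors of the Hedgehog pathway in check. The controls were Sufu flox/+ per the series text, and the labels do not say whether they carried Cre. By the cross described, every pup of both genotypes also inherited 1 Math1 mgfp allele. Math1-Cre is active in the precursors of granule neurons, so the recombined cells were 1 part of the tissue, whereas the null allele was in all cells of a mutant.

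A dividing cell enters mitosis when cyclin B and Cdk1 become active, builds a spindle, attaches each chromosome to it through a kinetochore and waits at the spindle checkpoint until all are attached. The anaphase-promoting complex then marks securin and cyclin B for destruction, separase cuts cohesin and the sister chromatids part. The transcripts of most of these proteins are high in G2 and mitosis and low in cells that have left the cycle. In the newborn mouse cerebellum the main dividing population is the granule cell precursors of the external granule layer, which respond to Sonic hedgehog from Purkinje cells. In bulk tissue, fewer cells of a type and less RNA per cell cannot be told apart.

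Library depth ran from 21479565 to 26638284 counts assigned to genes. The titles of the libraries carry a letter, P for mutants 1 and 2 and controls 1 and 2, and R for mutants 3 and 4 and controls 3 and 4, whose meaning is not stated. Levels are in CPM, counts scaled to a common library size with edgeR's TMM factors. Sufu, the targeted gene, was 31.7, 34.4, 36.8 and 39.8 CPM in mutants 1 to 4, against 47.7, 50.97, 55.9 and 60.7 CPM in controls 1 to 4. Every mutant was below every control, at a log2 fold change of -0.59 (SE 0.11). Mutants 2 and 4 held Y-linked transcripts and almost no Xist, with Ddx3y at 74.5 and 65.3 CPM, whereas the other 6 libraries were high in Xist and near 0 in Ddx3y, so the 2 kinds of pup were not balanced between the genotypes. All 8 genes listed to check the tissue label were detected in every library, among them En2 and Zic1. Transcripts of 12 Hox genes, which mark hindbrain behind the cerebellum, summed to 6.28 to 158 CPM in mutants and 109 to 189 CPM in controls, and mutant 4 held the 6.28 CPM.

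The promoters of many mitotic genes are known to hold CCAAT boxes, bound by NF-Y, and a cell cycle genes homology region (CHR), bound by the MuvB core that works with Foxm1 and B-Myb in G2. RefSeq promoters of build GRCm38.p6, 250 bases before to 50 bases after an annotated start, were at hand for 45 of the 54 genes. The NF-Y box was searched on both strands by the letters CCAAT. For the CHR the letters were TTTGAA on both strands, or the variant TTCGAA, which reads alike on both. The 2 motifs were searched separately, and their matches may overlap. A CCAAT match was present in 31 of 45 genes (68.9%), against 37.4% of all 32851 promoters of the table. A CHR match was present in 34 of 45 genes (75.6%), against 19.2% of all promoters. Both were present in 28 of 45 genes (62.2%), against 7.52% of all promoters. For 3 genes with several starts the first listed was used. A match is a run of letters and not a measured binding site.

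The promoters of 5 genes show how these motifs are laid out, in capitals. They were drawn from the genes with the 2 smallest p or the highest CPM in each role group below. Genes added later, such as Top2a, were not considered. Those of higher mean CPM, not corrected for length, were preferred. They were Mki67 at chr7:135716330-135716629 (minus strand), Cenpf at chr1:189688037-189688336 (minus strand), Kif11 at chr19:37376132-37376431 (plus strand) and Aspm at chr1:139454523-139454822 (plus strand). Ncaph at chr2:127133905-127134204 (minus strand) was added as a gene with a match to neither motif in this window.
Mki67: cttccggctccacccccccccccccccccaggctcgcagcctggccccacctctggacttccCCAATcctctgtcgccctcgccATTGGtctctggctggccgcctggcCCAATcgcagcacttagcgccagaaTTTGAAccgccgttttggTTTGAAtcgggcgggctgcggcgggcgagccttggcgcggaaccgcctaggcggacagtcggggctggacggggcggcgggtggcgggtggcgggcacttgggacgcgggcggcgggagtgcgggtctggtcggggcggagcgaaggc
Cenpf: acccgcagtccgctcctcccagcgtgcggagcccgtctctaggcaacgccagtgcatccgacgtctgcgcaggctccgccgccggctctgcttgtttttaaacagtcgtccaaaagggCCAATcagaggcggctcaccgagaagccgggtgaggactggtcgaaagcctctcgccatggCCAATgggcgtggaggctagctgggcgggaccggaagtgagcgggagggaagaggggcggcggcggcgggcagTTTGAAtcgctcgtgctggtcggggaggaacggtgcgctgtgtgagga
Kif11: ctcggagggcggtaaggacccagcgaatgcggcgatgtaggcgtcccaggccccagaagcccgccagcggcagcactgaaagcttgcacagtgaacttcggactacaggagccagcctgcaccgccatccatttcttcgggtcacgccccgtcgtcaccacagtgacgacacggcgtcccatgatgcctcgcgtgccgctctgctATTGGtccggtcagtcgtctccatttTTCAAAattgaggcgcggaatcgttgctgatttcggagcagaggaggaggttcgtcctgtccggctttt
Aspm: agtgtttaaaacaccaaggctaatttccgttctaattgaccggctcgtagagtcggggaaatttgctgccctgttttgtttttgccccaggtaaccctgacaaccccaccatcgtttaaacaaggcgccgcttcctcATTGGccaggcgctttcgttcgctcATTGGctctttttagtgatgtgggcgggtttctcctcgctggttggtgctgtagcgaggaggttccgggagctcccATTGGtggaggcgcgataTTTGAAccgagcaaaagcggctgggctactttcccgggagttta
Ncaph: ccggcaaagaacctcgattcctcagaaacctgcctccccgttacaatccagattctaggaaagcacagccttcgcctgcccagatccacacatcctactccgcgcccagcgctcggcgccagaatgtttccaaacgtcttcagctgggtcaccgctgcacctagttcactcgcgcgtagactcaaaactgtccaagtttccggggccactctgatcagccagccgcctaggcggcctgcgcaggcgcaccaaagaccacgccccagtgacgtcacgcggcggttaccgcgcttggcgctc
In Cenpf and Aspm the CHR match begins 2 and 6 bases downstream of the annotated start, and in Kif11 it begins 19 bases upstream of it, on the opposite strand as TTCAAA. Mki67 has 2 CHR matches, beginning 116 and 98 bases upstream of the start, below 3 CCAAT matches. The median log2 fold change, mutant over control, was 0.44 in the 34 genes with a CHR match and 0.405 in the 11 without. It was 0.441 in the 31 genes with a CCAAT match and 0.443 in the 14 without, and 0.435 in the 28 genes with both and 0.447 in the other 17.

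All 54 genes had a higher mean in Sufu mutants than in controls, with log2 fold changes of 0.23 (Cdc25b) to 0.61 (Kif11) and a median of 0.44. Over all genes tested the median was 0.012, and 52.3% had a log2 fold change above 0. None of the 54 passed edgeR's quasi-likelihood test with Benjamini-Hochberg adjustment over all genes, with adjusted p-values of 0.381 to 0.539. The share of all 15789 genes called by that test was 0%. At an unadjusted p under 0.05, 36 of the 54 were higher in mutants, against 6.94% of all genes. DESeq2 called 0 of the 54, against 0.323% of all genes it adjusted, and placed 39 of them at an unadjusted p under 0.05 with a higher mean in mutants, against 5.38% of all genes. Every mutant lay above every control in 7 of the 54 genes, against 3.6% of all genes, and these were Ccna2, Cenpf, Cenpe, Kif14, Kif15, Anln and Mki67. Every mutant lay above the mean of the controls in 35 of the 54, against 15.9% of all genes. None of these differences was separated from the spread between pups by the test over all genes.

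The excess was uneven between the mutant pups. The mean log2 CPM of the 54 genes, less the mean of the 4 controls, was 0.11, 0.12, 0.48 and 0.92 in mutants 1 to 4, against -0.05, 0.06, -0.12 and 0.11 in controls 1 to 4. Mutant 4 was the highest of the 8 libraries for all 54 genes, against 25% of all genes tested, and mutant 3 lay above every control for 52 of them. Mutants 1 and 2 were above every control for 15 and 12 of the genes, and below every control for 2 and 1. The share of all genes with a single mutant above every control was not counted, so these counts have no background beside them. The summed level of the 54 genes was 2757, 2712, 3428 and 4712 CPM in mutants 1 to 4, against 2394, 2576, 2275 and 2664 CPM in controls 1 to 4. Without mutant 4 all 54 means stayed higher in mutants, and the median log2 fold change was 0.24.

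**Figure D1:**
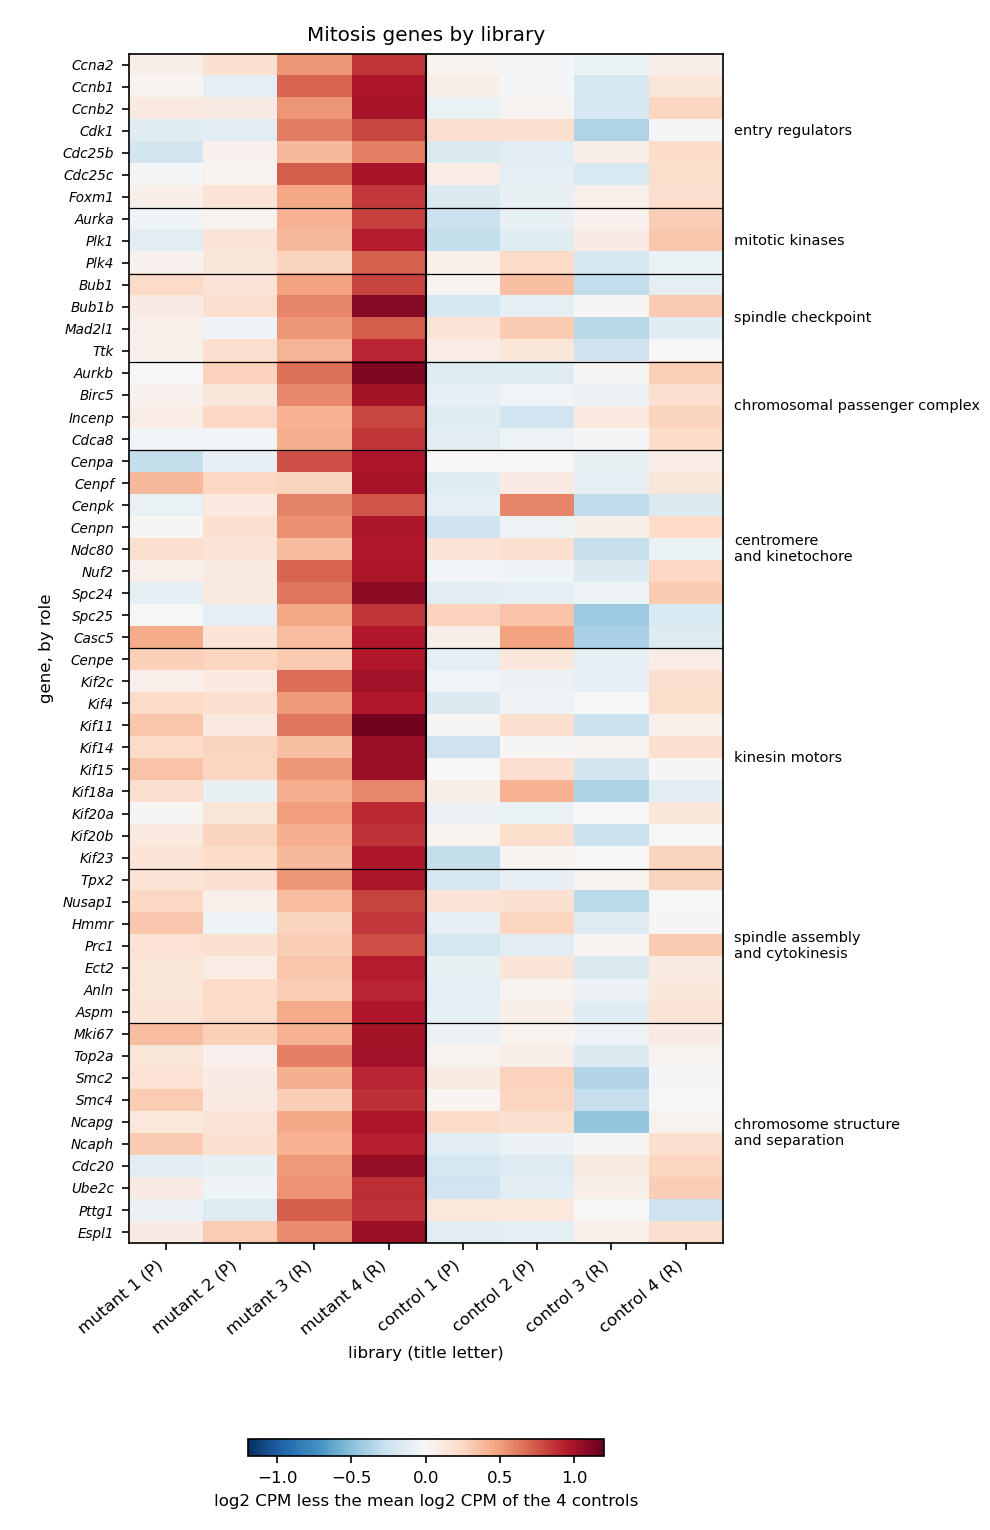
Each row is 1 of the 54 mitosis genes, grouped by role, and each column a library with its title letter in brackets; colour gives the log2 CPM of a library less the mean log2 CPM of the 4 controls. Mutant 4 is the highest library in all 54 rows, and mutants 1 and 2 lie close to the controls in most rows.

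Per kilobase of exon, Mki67 was the most abundant of the 54 over the 8 libraries, at 33.5 CPM per kb, followed by Top2a at 31.7, Ccna2 at 26.3, Cdc20 at 24.8 and Smc4 at 21.7 CPM per kb. Kif14 was the lowest at 1.76 CPM per kb, below Cenpk at 1.82 CPM per kb. The level had little relation to the size of the difference across the 54 genes, with a Spearman correlation of 0.14 between the mean level in CPM and the log2 fold change. The genes share the same 8 libraries and are not independent.

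The 7 regulators of entry into mitosis had a median log2 fold change of 0.44, and 4 of them had an unadjusted p under 0.05. Ccna2, the cyclin A of S phase and G2, was 95.9, 103, 130.1 and 165 CPM in mutants 1 to 4, against 93.3, 89.5, 85.96 and 95.4 CPM in controls 1 to 4. Its 4 mutants were all above its 4 controls, mutant 1 by a narrow margin, with a log2 fold change of 0.44 (SE 0.15) and an edgeR adjusted p of 0.381. Foxm1, the transcription factor that drives G2 and mitosis genes, was 56.5, 60.3, 74.2 and 97.2 CPM in mutants 1 to 4, against 48.02, 50.5, 56.2 and 61.8 CPM in controls 1 to 4. The P mutants lay within the range of the controls and the R mutants above it, for a log2 fold change of 0.41 (SE 0.16). The cyclin B genes Ccnb1 and Ccnb2, partners of Cdk1, had log2 fold changes of 0.46 and 0.47. Cdk1, the kinase of mitotic entry, was 45.7, 46.3, 77.2 and 87.8 CPM in mutants 1 to 4, against 58.1, 57.6, 39.3 and 49.6 CPM in controls 1 to 4. Both P mutants were below both P controls and both R mutants above every control, so its log2 fold change of 0.33 (SE 0.22) joined opposite differences. The phosphatases Cdc25b and Cdc25c, which remove inhibitory phosphates from Cdk1, had log2 fold changes of 0.23, the smallest of the 54, and 0.50.

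Among the 3 mitotic kinases the median was 0.34, and none had an unadjusted p under 0.05. Plk1, polo-like kinase of centrosome maturation and checkpoint release, was 28.6, 34.9, 41.1 and 60.1 CPM in mutants 1 to 4, against 25.6, 28.4, 33.6 and 39.4 CPM in controls 1 to 4. Again the P mutants lay within the range of the controls, and the log2 fold change was 0.38 (SE 0.22). Plk4, which starts centriole duplication, was 29.7, 31.7, 34.4 and 46.8 CPM in mutants 1 to 4, against 29.9, 33.6, 24.8 and 27.1 CPM in controls 1 to 4. Its P mutants overlapped its P controls, at a log2 fold change of -0.053 in the P libraries, against 0.62 in the R libraries and 0.30 (SE 0.15) over all 8. Aurka, the centrosomal Aurora kinase, had a log2 fold change of 0.34.

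The 4 spindle checkpoint genes had a median of 0.43. Bub1b, which encodes the BubR1 part of the complex that restrains the anaphase-promoting complex, was 46.8, 50.3, 65.6 and 93.2 CPM in mutants 1 to 4, against 37.8, 40.2, 44.2 and 54.4 CPM in controls 1 to 4. Control 4 was above both P mutants, the R mutants were the 2 highest libraries, and the log2 fold change was 0.54 (SE 0.21). Bub1, a kinase of the unattached kinetochore, was 34.2, 32.7, 40.9 and 51.3 CPM in mutants 1 to 4, against 29.9, 37.5, 23.9 and 27.1 CPM in controls 1 to 4. Control 2 exceeded mutants 1 and 2, so that the log2 fold change was -0.015 in the P libraries, 0.83 in the R libraries and 0.43 (SE 0.17) over all 8. Mad2l1, the Mad2 that captures Cdc20, was 34.2, 31.6, 46.8 and 54.3 CPM in mutants 1 to 4, against 36.7, 40.8, 25.9 and 29.6 CPM in controls 1 to 4. Both P mutants were below both P controls and both R mutants were above every control. Ttk, the Mps1 kinase that starts the checkpoint signal, had a log2 fold change of 0.43, with 3 mutants above every control.

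All 4 genes of the chromosomal passenger complex, which corrects wrong attachments at the centromere and then moves to the midzone, had higher means, with a median of 0.45. Aurkb, its Aurora kinase, was 26.99, 32.6, 42.7 and 58.5 CPM in mutants 1 to 4, against 24.3, 24.2, 27.1 and 32.9 CPM in controls 1 to 4. Mutants 3 and 4 were above every control, mutants 1 and 2 were below control 4, and the log2 fold change was 0.57 (SE 0.22), the second largest of the 54 after Kif11. Birc5, which encodes survivin, was 27.03, 28.7, 38.9 and 52.1 CPM in mutants 1 to 4, against 24.4, 25.5, 24.8 and 30.00 CPM in controls 1 to 4. The P mutants were again below control 4, and the log2 fold change was 0.49 (SE 0.19). Incenp, the scaffold of the complex, was 65.1, 72.99, 82.1 and 107 CPM in mutants 1 to 4, against 55.6, 51.9, 66.4 and 73.99 CPM in controls 1 to 4. Control 4 exceeded both P mutants. The log2 fold change was 0.36 in the P and 0.40 in the R libraries, and over all 8 it was 0.40 (SE 0.16). Cdca8, the borealin subunit, had a log2 fold change of 0.35.

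The 9 centromere and kinetochore genes had a median of 0.48. Cenpf, a large protein of the outer kinetochore, was 109.5, 99.03, 100.3 and 165 CPM in mutants 1 to 4, against 75.7, 89.3, 77.8 and 92.3 CPM in controls 1 to 4. Its 4 mutants were above its 4 controls, mutant 4 stood far above the other 3, and the log2 fold change was 0.50 (SE 0.16), or 0.29 without mutant 4. Nuf2, of the Ndc80 complex that binds the ends of microtubules, was 30.1, 31.2, 47.03 and 56.5 CPM in mutants 1 to 4, against 28.3, 27.9, 25.7 and 34.3 CPM in controls 1 to 4. Only the R mutants exceeded the range of the controls, and the log2 fold change was 0.51 (SE 0.20). The other subunits of that complex had log2 fold changes of 0.45 for Ndc80, 0.49 for Spc24 and 0.32 for Spc25. Spc24 was 12.2, 14.2, 20.6 and 27.7 CPM in mutants 1 to 4, against 11.97, 12.1, 12.6 and 16.3 CPM in controls 1 to 4, where control 4 stood apart from the other 3 controls and above mutants 1 and 2. Spc25 was 26.03, 23.9, 35.6 and 46.8 CPM in mutants 1 to 4, against 31.2, 32.9, 19.1 and 22.8 CPM in controls 1 to 4. Here the P mutants were below both P controls and the R mutants above every control, the widest contrast between the letters among the 54. Cenpa, the histone H3 variant that marks the centromere, was 20.3, 23.2, 42.5 and 48.7 CPM in mutants 1 to 4, against 24.8, 24.7, 23.4 and 26.4 CPM in controls 1 to 4. The P mutants were the lowest of all 8 libraries and the R mutants the highest. Casc5, the Knl1 scaffold that recruits the Bub kinases, had a log2 fold change of 0.48, and Cenpn and Cenpk, of the inner kinetochore, 0.48 and 0.34.

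The 10 kinesin genes had a median of 0.49 over all 8 libraries, the highest of the role groups in that fit, and 9 of them had an unadjusted p under 0.05. Kif11, the Eg5 motor that pushes the spindle poles apart, was 76.1, 65.4, 93.3 and 135 CPM in mutants 1 to 4, against 60.7, 68.6, 50.3 and 62.8 CPM in controls 1 to 4. Mutant 2 was below control 2 and the other 3 mutants were above every control, and the log2 fold change was 0.61 (SE 0.20). Kif15, which works beside Kif11 in holding the poles apart, was 50.1, 47.3, 56.7 and 81.3 CPM in mutants 1 to 4, against 39.7, 45.6, 33.9 and 39.8 CPM in controls 1 to 4. Its groups did not overlap, and the log2 fold change was 0.57 (SE 0.17) with an edgeR adjusted p of 0.381. Cenpe, the motor that carries chromosomes to the spindle equator, was 57.6, 56.5, 58.8 and 92.04 CPM in mutants 1 to 4, against 43.7, 51.8, 43.8 and 50.3 CPM in controls 1 to 4. Kif14, a motor of the midzone and cytokinesis, was 17.6, 18.04, 19.3 and 30.5 CPM in mutants 1 to 4, against 12.6, 15.2, 15.3 and 17.3 CPM in controls 1 to 4. In both Cenpe and Kif14, mutants 1 to 3 lay close together above the controls and mutant 4 far above them, with log2 fold changes of 0.48 (SE 0.16) for Cenpe and 0.50 (SE 0.19) for Kif14. The remaining 6 were Kif4 at 0.51 on the log2 scale, a chromokinesin on the X chromosome, the microtubule depolymerase Kif2c at 0.52, the centralspindlin motor Kif23 at 0.46, Kif20b at 0.44 and Kif20a at 0.43, both of cytokinesis, and Kif18a at 0.27, which damps chromosome movement at the equator. In the R libraries the centromere and kinetochore group had the highest median, 0.85 against 0.69 for the kinesins. The spindle checkpoint (0.80), chromosome structure and separation (0.71) and entry regulators (0.71) were also above the kinesins there, and the remaining groups below. In the P libraries the passenger complex had the highest median, 0.22 against 0.17 for the kinesins. Spindle assembly and cytokinesis, at 0.19, was also above the kinesins in P, and the remaining groups were below. Kif18a was lower in the P mutants than in the P controls, at -0.20, and higher in the R mutants than in the R controls, at 0.72.

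Spindle assembly and cytokinesis were represented by 7 genes with a median of 0.41. Tpx2, which activates Aurora A and seeds spindle microtubules, was 82.7, 84.3, 106 and 145 CPM in mutants 1 to 4, against 63.9, 68.7, 75.6 and 88.4 CPM in controls 1 to 4. Control 4 exceeded both P mutants, the R mutants were the 2 highest libraries, and the log2 fold change was 0.50 (SE 0.18). Aspm, a spindle pole protein whose human orthologue is mutated in microcephaly, was 64.2, 67.5, 78.7 and 113 CPM in mutants 1 to 4, against 53.98, 60.96, 52.3 and 64.5 CPM in controls 1 to 4. Mutant 1 was just below control 4 and the other 3 mutants were above every control, with a log2 fold change of 0.48 (SE 0.17). Anln, the anillin that ties the contractile ring to the membrane, was 33.6, 35.4, 37.5 and 57.02 CPM in mutants 1 to 4, against 28.1, 31.3, 28.8 and 33.3 CPM in controls 1 to 4. Its groups did not overlap but mutant 1 exceeded control 4 by little, and the log2 fold change was 0.43 (SE 0.16). The microtubule crosslinkers Prc1 and Nusap1, the cytokinesis regulator Ect2 and the hyaluronan receptor Hmmr, which also works at the spindle pole, had log2 fold changes of 0.36, 0.39, 0.41 and 0.37.

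The 10 genes of chromosome structure and separation had a median of 0.44. Mki67, the Ki-67 protein that coats mitotic chromosomes and marks cycling cells, was 354, 333, 365 and 548 CPM in mutants 1 to 4, against 260.3, 281, 262 and 293 CPM in controls 1 to 4. Its groups did not overlap and mutant 4 stood far above the other 3 mutants. The log2 fold change was 0.55 (SE 0.15) with an edgeR adjusted p of 0.381, and 0.35 without mutant 4. Top2a, the topoisomerase that untangles sister chromatids, was 261, 245, 359 and 475 CPM in mutants 1 to 4, against 244, 251, 211 and 243 CPM in controls 1 to 4. Mutant 2 lay within the range of the controls, mutant 1 just above it and the R mutants well above it. Ncaph, the kleisin of condensin I, was 40.2, 36.6, 43.1 and 61.8 CPM in mutants 1 to 4, against 29.3, 30.7, 32.7 and 36.9 CPM in controls 1 to 4, with mutant 2 just below control 4, the other 3 mutants above every control and a log2 fold change of 0.49 (SE 0.16). The other condensin genes Smc2, Smc4 and Ncapg had log2 fold changes of 0.42, 0.42 and 0.45. Of the genes of the exit from mitosis, Cdc20, which activates the anaphase-promoting complex, was at 0.40 on the log2 scale, Ube2c, its ubiquitin-conjugating enzyme, at 0.41, and Espl1, the separase, at 0.54. Pttg1, the securin that holds separase inactive, was 17.5, 16.5, 30.2 and 33.5 CPM in mutants 1 to 4, against 20.02, 19.98, 18.4 and 15.4 CPM in controls 1 to 4. Both P mutants were below both P controls, both R mutants were above every control, and the log2 fold change was 0.41 (SE 0.22).

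**Figure D2:**
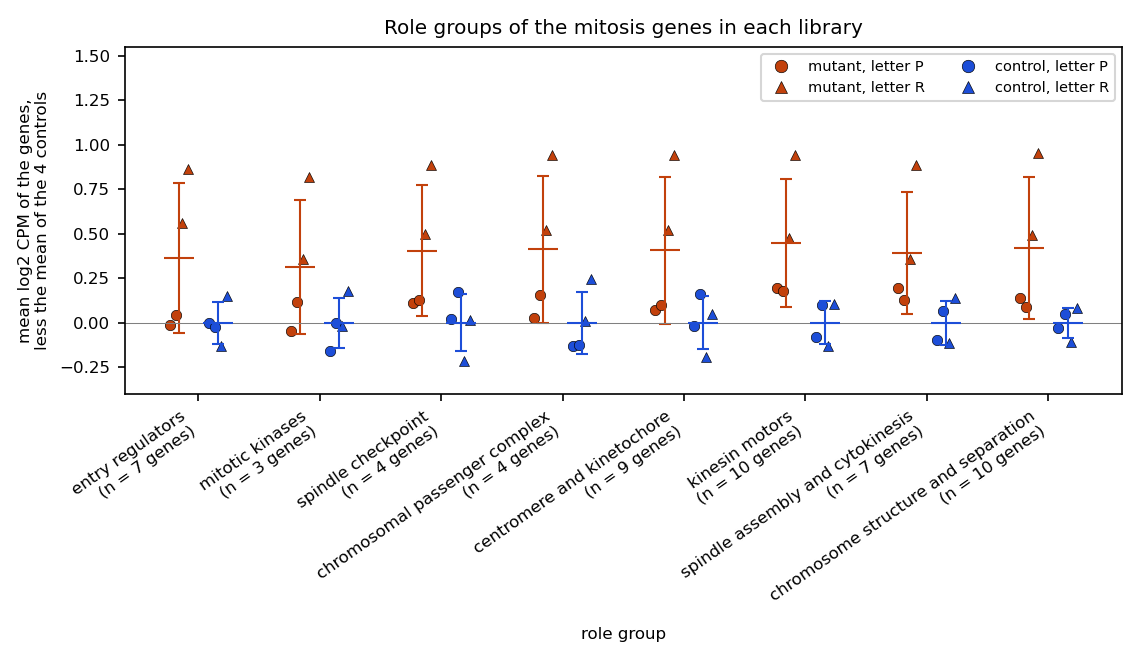
For each role group, each point is 1 library, as the mean log2 CPM of the group's genes less the mean of the 4 controls; horizontal bars are the means of mutants (left) and controls (right) and whiskers are the SD, n = 4 each. In every group the 2 R mutants (triangles) lie above all 4 controls, and the P mutants lie lower, at -0.04 to 0.20. Both P mutants also lie above all 4 controls for the kinesin motors and for chromosome structure and separation. Mutant 1 alone of the P mutants does for spindle assembly and cytokinesis, and neither does in the remaining groups.

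The difference was of unequal size in libraries of the 2 title letters. Among the P libraries the median log2 fold change of the 54 genes was 0.12, and 40 of them had a higher mean in mutants, against 49.5% of all genes. Among the R libraries the median was 0.70 and all 54 had a higher mean in mutants, against 51% of all genes. In the R libraries 52 genes had an unadjusted p under 0.05 and a higher mean in mutants, against 14.1% of all genes, and in the P libraries 13, against 5.57%. Both R mutants lay above every one of the 4 controls in 52 of the 54 genes, against 21.4% of all genes. In neither letter did a member pass the adjusted threshold with 2 libraries a group.

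The interaction of genotype and letter, which tests the difference between the 2 letters itself, was above 0 for all 54 genes, against 51.9% of all genes. Its median was 0.60 on the log2 scale, against 0.020 over all genes, and it ranged from 0.036 for Prc1 to 1.34 for Spc25. By edgeR's quasi-likelihood test adjusted over all genes, 7 of the 54 had a larger difference in the R libraries, against 2.24% of all genes, or 3.2% with those of smaller difference in R. The 7 were the cyclin and kinase of entry, Ccnb1 at 0.93 (SE 0.20, adjusted p = 0.0437) and Cdk1 at 1.22 (SE 0.17, adjusted p = 0.0162), and the checkpoint gene Mad2l1 at 1.10 (SE 0.17, adjusted p = 0.0204). They also included the centromere and kinetochore genes Cenpa at 1.06 (SE 0.17, adjusted p = 0.0229) and Spc25 at 1.34 (SE 0.21, adjusted p = 0.022). The remaining genes were Top2a at 0.84 (SE 0.19, adjusted p = 0.0496) and Pttg1 at 1.15 (SE 0.17, adjusted p = 0.0195). Ccnb1 itself was 56.8, 51.7, 89.99 and 109 CPM in mutants 1 to 4, against 58.9, 54.9, 48.1 and 61.4 CPM in controls 1 to 4, with both R mutants above every control and both P mutants within or just below the range of the P controls. In Cdk1, Mad2l1, Cenpa, Spc25 and Pttg1 both P mutants were below both P controls while both R mutants were above both R controls. Each letter has 2 mutants, and in each pair 1 mutant, number 2 or 4, held Y-linked transcripts and 1 held Xist.

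**Figure D3:**
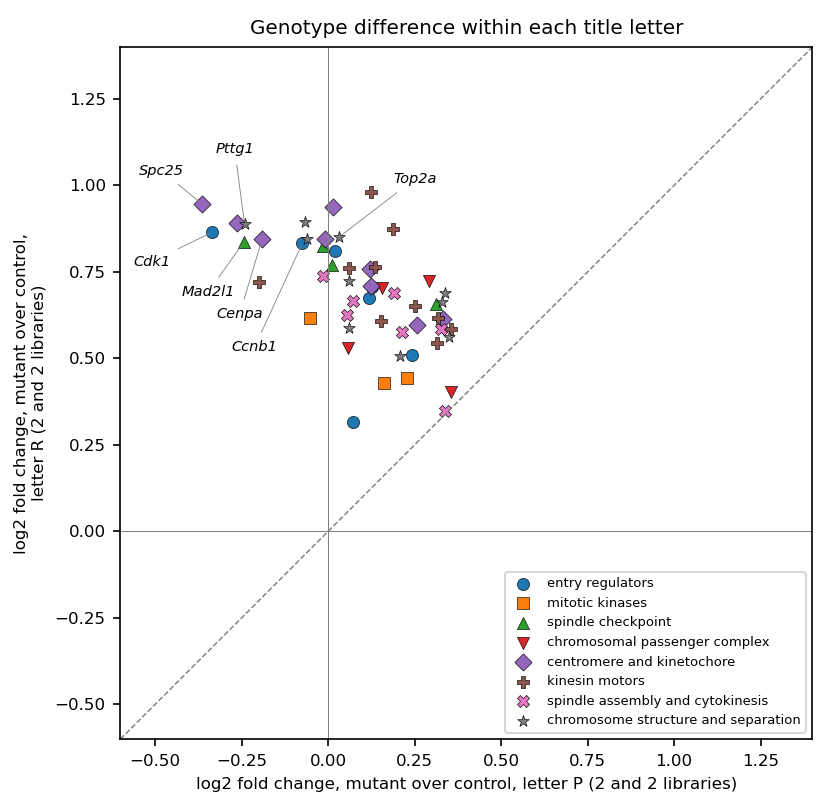
Each point is 1 of the 54 genes, with its log2 fold change, mutant over control, among the P libraries on the horizontal axis and among the R libraries on the vertical axis; the dashed line marks equal differences and the 7 genes that passed the interaction test are named. All points are above 0 on the vertical axis and all lie above the dashed line, Prc1 the closest to it.

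Among the controls alone, the levels of the 54 genes in R and P libraries differed with base composition. The GC content of the 54 transcripts ran from 36.3 to 56.1%. Across the 54 genes, the Spearman correlation between GC content and the log2 difference of R from P controls was 0.84, against 0.59 over 15659 genes. Between R and P mutants the correlation with GC content was 0.42 across the 54 genes, against 0.27 over the 15659. In the 27 genes of lower GC content the R controls were lower than the P controls in 22, with a median log2 difference of -0.25. In the 27 of higher GC content they were higher in 25, with a median of 0.25. The genotype difference over all 8 libraries had a Spearman correlation of 0.12 with GC content across the 54 genes, with medians of 0.43 in the 27 genes of lower GC content and 0.47 in the 27 of higher. Within the letters the medians went opposite ways with GC content. In the P libraries they were 0.015 in the genes of lower and 0.21 in those of higher GC content, and in the R libraries 0.77 and 0.61 in the same order. Genes share libraries, so these are descriptions. The GC trend was then removed from each library, a setting chosen after the data were seen. All 54 means remained higher in mutants, and the median was 0.43. In this setting the interaction was called for 10 of the 54 genes and for 1053 of all 15659 genes. Without it, the calls were 7 of the 54 and 505 of all 15789. The 3 further genes were Bub1, Kif18a and Smc2. The part of GC content in the differences between the letters of single genes was not tested.

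**Figure D4:**
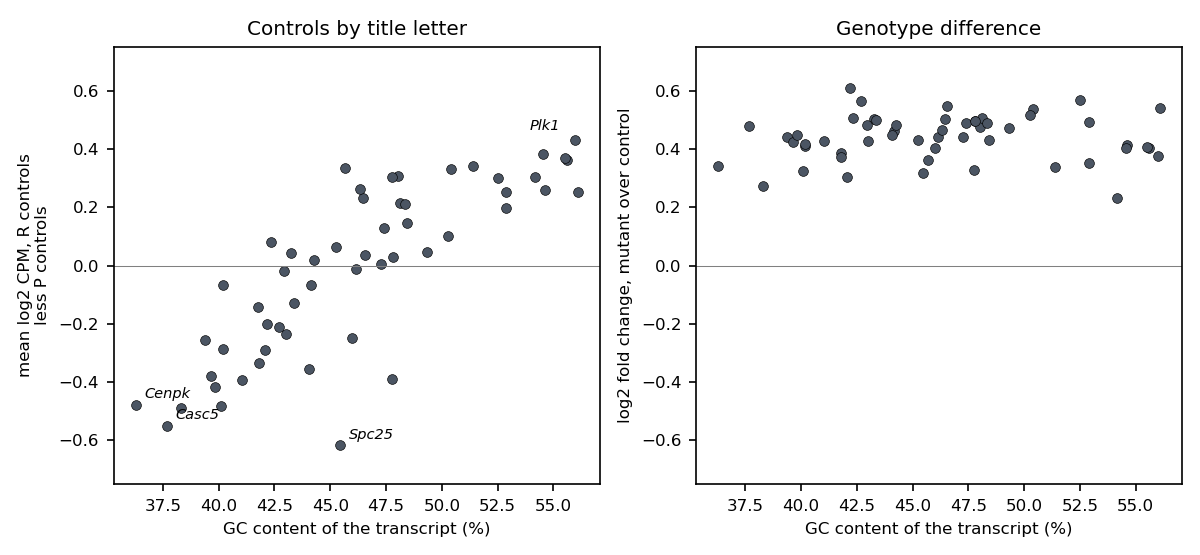
Each point is 1 of the 54 genes at the GC content of its transcript; the left panel shows the mean log2 CPM of the R controls less that of the P controls and the right panel the log2 fold change, mutant over control, over all 8 libraries. The left panel slopes upward (Spearman correlation 0.84) and the right panel shows little slope (Spearman correlation 0.12) with all points above 0.

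Exon bins gave a second count along each gene in the same 8 libraries. The bins are therefore not independent of the gene counts or of each other. Of the 54 genes, 53 had bins of their own, and Foxm1 shared a bin group with another gene. In mutants the log2 fold change was above 0 in 931 of their 936 bins, against 51.7% of all bins tested, with a median of 0.42. The 5 bins below 0 were in Casc5 (2 bins), Cdc25b, Cenpe and Kif18a (1 bin each), and the lowest was at -0.13 in Cdc25b. No gene was called for the usage of its bins by edgeR's diffSpliceDGE (0 of 53, against 0.00762% of all genes). At an unadjusted p under 0.05 there were 0 of the 53, and only 28 of all 13124 genes. A test that placed so few genes there cannot show that bin usage was unchanged.

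The wider machinery was read from 114 further names of mitosis genes, some of them alternative symbols of the same gene. Of the names, 111 were found in the count tables, and all 111 were tested. Of these, 101 had a higher mean in mutants and 10 a lower one, with a median log2 fold change of 0.33, and none passed the adjusted test. Those with the smallest p included Cdc14b, a phosphatase, at 0.61 (SE 0.15), and the centriole gene Stil at 0.61 (SE 0.18). They also included the Aurora A activator Bora at 0.56 (SE 0.16) and the kinetochore gene Nsl1 at 0.51 (SE 0.15). The other was the spindle gene Ckap2l at 0.52 (SE 0.16). Stil was 18.8, 18.7, 21.2 and 31.1 CPM in mutants 1 to 4, against 14.8, 13.4, 13.4 and 17.3 CPM in controls 1 to 4, with no overlap between the groups and the same excess in mutant 4. Of the 10 with a lower mean, Zwint, which links the outer kinetochore to the checkpoint proteins, had the largest difference. Zwint was 285, 282, 297 and 204 CPM in mutants 1 to 4, against 436, 351, 330.4 and 319 CPM in controls 1 to 4. All 4 mutants were below all 4 controls, with a log2 fold change of -0.43 (SE 0.14) and an edgeR adjusted p of 0.381. Cit, the citron kinase of cytokinesis, followed at -0.30 (SE 0.12) and Fzr1, the Cdh1 activator of the anaphase-promoting complex outside mitosis, at -0.17 (SE 0.12). The other 7 were the complex's subunits Anapc5, Anapc10, Anapc11 and Anapc13, with Mad1l1, Lin52 and Haus7, all between -0.063 and -0.0050.

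Genes of other lists were uneven between the same libraries. The 52 genes of S phase and DNA replication had a median log2 fold change of 0.32 and 51 had a higher mean in mutants, the exception being Rpa3 at -0.085. The mean log2 CPM of the list, set to the controls as above, came to -0.04, 0.05, 0.45 and 0.70 in mutants 1 to 4, against -0.04, -0.01, -0.05 and 0.10 in controls 1 to 4, so R mutants were high in both phases and P mutants near the controls. Of 11 markers of granule cell precursors, 10 had a higher mean in mutants, and their summed level was 1288 to 2447 CPM in mutants against 1252 to 1487 CPM in controls. The list's mean log2 CPM, again less that of the controls, came to -0.08, 0.22, 0.43 and 0.88 in mutants 1 to 4, against -0.15, -0.09, 0.07 and 0.17 in controls 1 to 4. Atoh1, the gene that Math1 names and whose control elements drive the Cre, was 17.1, 26.2, 34.96 and 48.8 CPM in mutants 1 to 4, against 18.3, 18.3, 17.5 and 22.7 CPM in controls 1 to 4. Gli1, a direct Hedgehog target, was the exception among the 11, with a log2 fold change of -0.46 (SE 0.21). Mutant 4 was also the highest library for other cell lists of the cerebellum. The same measure over 6 granule neuron markers came to 0.10, 0.09, 0.25 and 0.59 in mutants 1 to 4, against -0.07, -0.20, 0.17 and 0.10 in controls 1 to 4. Over 9 Purkinje cell markers, all 9 higher in mean, it came to 0.24, 0.03, 0.29 and 0.54 in mutants 1 to 4, against -0.25, -0.22, 0.12 and 0.35 in controls 1 to 4. Over 6 markers of ventricular zone and interneuron precursors it came to -0.10, -0.29, 0.53 and 0.55 in mutants 1 to 4, against -0.23, -0.28, 0.16 and 0.34 in controls 1 to 4. Over the 8 genes that check the tissue label, all 8 higher in mean and some of them also in the lists above, it came to 0.04, 0.10, 0.55 and 0.95 in mutants 1 to 4, against -0.18, -0.21, 0.06 and 0.33 in controls 1 to 4.

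Markers of other tissue also differed between these libraries. The same measure over the 11 tested Hox genes was 0.17, -1.42, -0.56 and -3.94 in mutants 1 to 4, against -0.34, -0.40, 0.42 and 0.32 in controls 1 to 4, and mutant 4, the highest library for mitosis genes, was the lowest here. Hoxb1 was at 0 in mutants 1 and 4, and the other 11 of the 12 listed genes had counts in every library. With the mean log2 CPM of all 12 listed Hox genes as a covariate, 53 of the 54 mitosis genes had a higher fitted level in mutants. The median was then 0.18. The 9 oligodendrocyte markers summed to 644 to 1245 CPM in mutants and 1246 to 1873 CPM in controls, and none was at 0 in any library. The 7 choroid plexus markers summed to 3380 to 5943 CPM in mutants and 1337 to 3116 CPM in controls, with all 7 higher in mean and none at 0. The 7 microglial markers summed to 109 to 156 CPM in mutants and 133 to 192 CPM in controls, with all 7 lower in mean. The part of these differences in the levels of the mitosis genes was not tested. With Xist as a covariate the median of the 54 was 0.28. With mutants 2 and 4 left out, a setting chosen after the data were seen, it was 0.29 and all 54 means were higher.

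**Figure D5:**
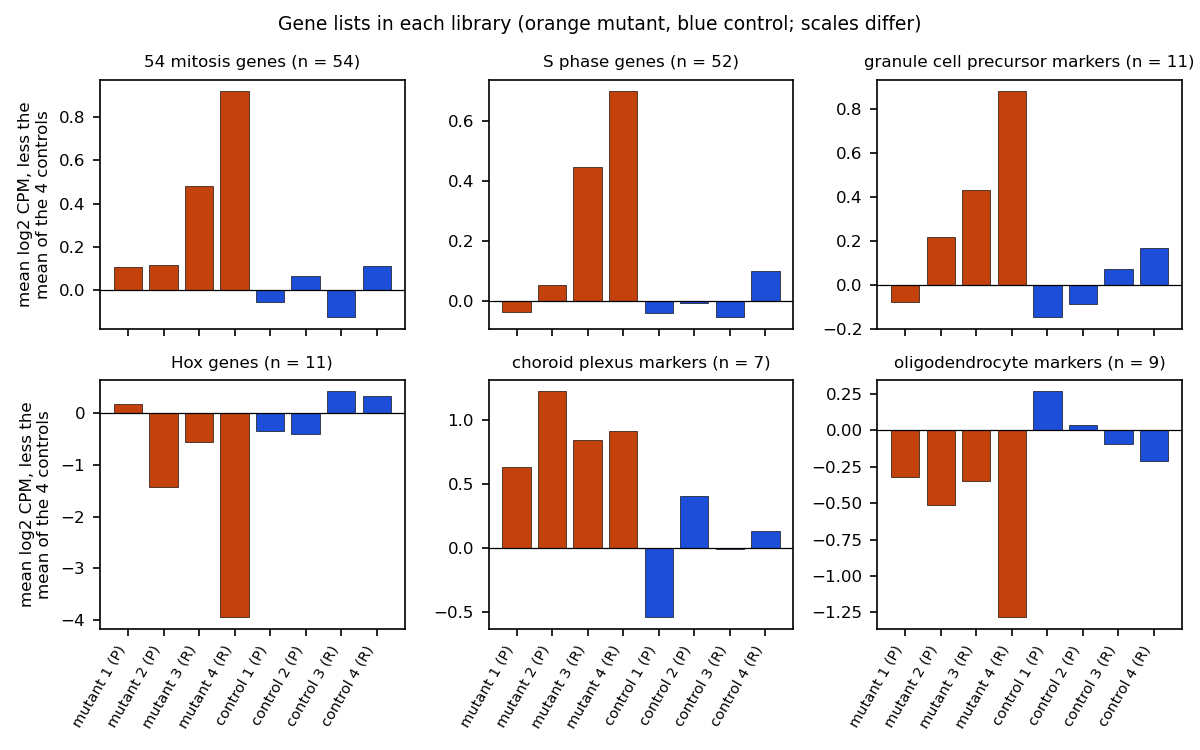
Each panel shows 1 gene list, with a bar for each library (4 mutants in orange, then 4 controls in blue, title letters in brackets) giving the mean log2 CPM of the list's tested genes less the mean of the 4 controls; vertical scales differ. Mutant 4 has the highest bar for the mitosis, S phase and granule cell precursor lists and the lowest for the Hox and oligodendrocyte lists.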

How the data were processed

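RNA of single P2 cerebella was sequenced after TruSeq polyA library preparation, per the labels' protocols. The submitters' processing notes name TopHat, HTSeq, DESeq2 and the build mm9 and give no versions. The authors deposited whole-number counts per gene and per exon bin, not normalized; the strand setting of the counting is not stated, so overlapping genes cannot be told apart. Summary lines that name no gene, 24.8 to 34.3% of entries and more in P than in R libraries, were left out.

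The tests used edgeR 4.0.16 (R 4.3.3; filterByExpr, TMM, robust quasi-likelihood F test, two-sided, Benjamini-Hochberg over all genes, threshold 0.05), genotype being the only term. DESeq2 1.42.0 was an alternative. Exon bins were tested with diffSpliceDGE. Each SE is the size of the log2 fold change divided by the square root of F. The edgeR gene test and its interaction term were tried on simulated counts, and the other fits were not. GC content and exonic length come from GENCODE M21 on GRCm38, which differs from the authors' build. Casc5 was matched as Knl1.

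The members and lists were chosen with earlier results of these data known, so counts over them are descriptions. Values in every library are given for the 2 smallest p and the highest CPM in each role group and for members with a library far from the others. Cdk1, Ccnb1, Mad2l1, Cenpa, Spc25, Top2a, Pttg1 and Stil were added after their values were seen. Each library is a different pup, per the labels, and replicate numbers follow the order of deposit.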

Additional observations from a re-analysis of the deposited data

Results flagged for a closer look

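Of 108 groups of 4 libraries, 54 genes in each genotype, 6 had a library far from the other 3, where chance gives about 1 in 20. In mutants it was mutant 4 each time, at 165 CPM for Cenpf, 92.0 CPM for Cenpe, 30.5 CPM for Kif14, 57.0 CPM for Anln and 548 CPM for Mki67. The nearest mutants were at 109.5, 58.8, 19.3, 37.5 and 365 CPM for the same genes in that order. Among the controls it was control 4 for Spc24, at 16.3 CPM, where the nearest control was at 12.6 CPM.

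The genotype difference on the log2 scale was larger in the R than in the P libraries by 0.93 for Ccnb1, 1.22 for Cdk1, 1.10 for Mad2l1, 1.06 for Cenpa, 1.34 for Spc25, 0.84 for Top2a and 1.15 for Pttg1, all past edgeR's interaction test adjusted over all genes. For Ncapg both P mutants were below both P controls and both R mutants above both R controls, a difference of 0.99 that did not pass that test (adjusted p = 0.0832).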

How the results depend on the processing

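None of the 54 genes was called under any of the 21 alternatives, and all 54 means stayed higher in mutants except in the P libraries (40) and with the Hox covariate (53); the exon bin sums cover 53 genes, all higher. The median log2 fold change, 0.44, was 0.12 in the P libraries, 0.70 in the R libraries, 0.18 with the Hox covariate, 0.28 with the Xist covariate and 0.29 without the Y-linked mutants 2 and 4. Leaving out 1 library at a time gave 0.24 (without mutant 4) to 0.53. The genes with an unadjusted p under 0.05 were 36 of 54. Without mutants 1 to 4 in turn they numbered 47, 44, 16 and 10. Without controls 1 to 4 in turn they numbered 16, 27, 16 and 30. They numbered 40 with the letter as a block and 9 without both Y-linked mutants. With the Hox covariate there was 1, and with the Xist covariate 0. The shares over all genes were not counted for these settings, and the causes were not tested. In the P libraries the difference turned to -0.053 for Plk4 and -0.015 for Bub1; 354 of the 356 values of the 17 genes named by the rule kept their direction. The interaction was called for 7 of the 54 genes and 505 of all 15789. With no filter on low counts the calls were 9 of the 54 and 605 of all 20954. With the GC trend removed they were 10 of the 54 and 1053 of all 15659. No paired analysis was possible because the replicate numbers only name the samples; with the title letter as a block the median was 0.42 and 0 genes were called. The shares of the error due to counting and to pups were not separated.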
